A study of Homo sapiens with 12 samples.

Results

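The 44 autophagy and lysosome genes described here are a list of named genes, matched by symbol to the 60641 symbols of a table of read counts. All 44 were found, and 43 of them had enough counts for a test, as did 17889 genes in all. The table holds 12 libraries of SRA01/04 cells, an immortalised line of human lens epithelial cells, collected 24 hours after treatment. There were 4 groups with 3 libraries each: cells given 1,2-DHN (1,2-dihydroxynaphthalene, a naphthalene metabolite that oxidises to a quinone) together with asparagine (DHN-A), cells given 1,2-DHN alone (DHN), cells given asparagine alone (NC-A) and cells given neither (NC). All libraries come from 1 cell line. The sources used here give neither the doses nor the order of the additions. It is not stated if the replicates are different cultures, and p-values therefore cover only the spread between these libraries, which may be technical.

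Autophagy encloses cell contents in a double membrane and delivers them to lysosomes. Cargo receptors bind what is to be removed and tie it to ATG8 proteins (the LC3 and GABARAP families) on the growing membrane, the ULK1 complex and a lipid kinase complex start that membrane, and a ubiquitin-like conjugation system attaches the ATG8 proteins to lipid. Lysosomes break the cargo down with acid hydrolases, and the vacuolar proton pump (V-ATPase) keeps their interior acid. TFEB and TFE3 are transcription factors known to switch on genes of both systems when nutrients are scarce or lysosomes are stressed. Lens epithelial cells use these routes to clear damaged proteins and organelles.

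Total counts ran from 12381071 to 27526206 per library. Levels are given as CPM, counts per 1000000 counts of the scaled library size. 1 library, NC-A 1, stood apart on the first principal component of all genes, at 65.1 against 12.5 and 10.4 for the other NC-A libraries. Counts of members in comparisons that use NC-A, and the members named there, are therefore also given without it. Of 10 lens markers 4 had enough counts for a test. These were PAX6, BFSP1, CRYGS and CRYAB, with means of 25.2, 3.87, 1.58 and 0.704 CPM in NC cells. The lens genes CRYAA, MIP and LIM2 had 5, 6 and 1 counts over all libraries, and CRYBB2, FOXE3 and PITX3 had 22, 31 and 42. The line was not distinguished as lens by these untested genes. The 10 lens markers summed to 35.6 to 38.9 CPM in DHN-A cells, 45.8 to 51.7 CPM in DHN cells, 30.7 to 32 CPM in NC-A cells and 30.9 to 32.4 CPM in NC cells. In the same order of groups CRYAB averaged 3.81, 10.8, 1.1 and 0.704 CPM, and PAX6 25.4, 29.8, 23 and 25.2 CPM. CRYGS averaged 2.44, 1.56, 2.16 and 1.58 CPM, so the lens markers did not rise alike in DHN cells. The 5 fibroblast markers summed to 1100 to 1160 CPM in DHN-A cells, 736 to 783 CPM in DHN cells, 1110 to 1120 CPM in NC-A cells and 1280 to 1360 CPM in NC cells. Most of that sum was COL1A1, with means of 1050, 692, 1040 and 1230 CPM in the same order. Of the 5 immune markers CSF1R and CD14 had enough counts for a test, with 1064 and 216 counts in all libraries. PTPRC, CD163 and CD68 had 69, 56 and 42 and were not tested. The 5 summed to 5.25 to 6.82 CPM in DHN-A cells and 7.3 to 9.35 CPM in DHN cells. In NC-A cells they summed to 4.87 to 5.1 CPM and in NC cells to 5.31 to 5.59 CPM. CSF1R averaged 4.73, 5.28, 3.82 and 4.09 CPM in DHN-A, DHN, NC-A and NC cells. The 4 keratinocyte markers summed to at most 1.21 CPM in any library. The part of these markers in the results below was not tested.

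Levels of different genes are compared here per kilobase of the length column (CPM per kb, group means). In NC cells the most abundant members were the lysosomal protease gene CTSB at 137 CPM per kb, CTSZ, another cathepsin, at 117, LAMP1, a major protein of the lysosomal membrane, at 97.9 and CTSL at 96.3. The cargo receptor genes OPTN, CALCOCO2 and SQSTM1 were at 69.5, 55.2 and 40.0 CPM per kb, above every ATG8 gene as counted. In that family GABARAPL2 had the highest level, with GABARAPL1 at 14.7 and MAP1LC3B at 7.73 CPM per kb. In DHN cells GABARAPL1 stood at 27.1, GABARAPL2 at 19.8 and MAP1LC3B at 13.3 CPM per kb, so GABARAPL1 had the highest counted level of the family there. TFEB, at 1.72 CPM per kb in NC cells, was far below its relative TFE3 at 42.6. MAP1LC3A, the remaining LC3 gene of the list, had 24 counts in all libraries together, between 0 and 5 per library, and was not tested.

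Some of these levels are uncertain because the sources used here do not state the counting rules. In GENCODE release 29 other genes on the same strand share 41.7% of the exon bases of CTSD, 38.8% of ATG9A and 30.5% of GABARAP. GABARAP, a gene that most human cells express strongly, had only 2 to 66 counts per library. MAP1LC3B has a near-identical copy, MAP1LC3B2, which had 422 counts in all libraries together. Genes on the opposite strand share 28.1% of the exon bases of WIPI1, 25.2% of GABARAP, 22.0% of SQSTM1, 19.2% of ATG101, 18.1% of ATG7, 17.1% of BECN1, 15.8% of CTSD and 13.0% of HEXA, and under 10% of those of any other member, which matters only where strand was ignored.

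Promoter windows show which members carry motifs known from the responses to lysosomal, oxidative and heat stress. RefSeq windows (GRCh38.p14, 250 bases before to 50 after a start site) were found for 34 members, some with several starts, 43 windows in all. No window was used for ATP6V0E1, HEXA, ATP6V1A, LAMP2, ATP6V1B2, ATP6V1C1, RB1CC1, ATP6V1H, CTSB and MAP1LC3A. The E-box CACGTG (read the same on both strands), the core of the element that TFEB and TFE3 bind, matched in 16.3% of these windows against 7.23% of 34943 windows of all genes and 9.04% of those of tested genes. The core of the antioxidant response element, TGACNNNGC, which NRF2 binds, matched on either strand in 20.9% of the members' windows against 13.3% of all and 14.3% of those of tested genes. The heat shock element, which HSF1 binds, matched in 0 of 43, against 0.489% of all windows. Matches of an E-box and an antioxidant core overlapped in 1 member, LAMP1. The E-box genes were ATG3, NEU1, ATG14, ATP6V0D1, MCOLN1, CTSD and LAMP1, and the antioxidant core was in CTSL, CTSD, ATG101, LAMP1, ATP6V0D1, MAP1LC3B, CALCOCO2, CTSZ and GLA. Windows are shown of SQSTM1, MAP1LC3B and GLA, which had large changes, of ATP6V0D1 and MCOLN1, lysosomal genes with an E-box, and of LAMP1, which has 6 E-boxes. Capitals mark every match, and the letters run along each gene's own strand.
SQSTM1, chr5:179820655-179820954, strand plus: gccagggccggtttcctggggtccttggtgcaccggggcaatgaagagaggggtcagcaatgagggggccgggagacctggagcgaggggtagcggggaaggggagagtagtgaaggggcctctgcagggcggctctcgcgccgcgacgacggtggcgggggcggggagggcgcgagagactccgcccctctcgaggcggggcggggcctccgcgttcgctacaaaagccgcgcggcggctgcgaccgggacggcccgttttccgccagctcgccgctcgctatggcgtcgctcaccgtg
MAP1LC3B, chr16:87392086-87392385, strand plus: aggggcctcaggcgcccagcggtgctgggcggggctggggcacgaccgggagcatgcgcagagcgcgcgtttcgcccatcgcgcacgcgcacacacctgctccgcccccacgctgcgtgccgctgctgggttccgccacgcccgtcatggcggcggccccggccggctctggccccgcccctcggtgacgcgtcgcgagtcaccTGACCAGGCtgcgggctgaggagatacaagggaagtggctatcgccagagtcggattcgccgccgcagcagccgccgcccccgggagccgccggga
GLA, chrX:101407876-101408175, strand minus: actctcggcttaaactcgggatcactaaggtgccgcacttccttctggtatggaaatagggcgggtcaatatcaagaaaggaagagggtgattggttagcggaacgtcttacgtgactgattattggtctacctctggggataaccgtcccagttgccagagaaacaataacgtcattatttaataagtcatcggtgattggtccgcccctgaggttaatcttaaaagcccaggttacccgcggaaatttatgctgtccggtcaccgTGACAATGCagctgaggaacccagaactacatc
ATP6V0D1, chr16:67481108-67481407, strand minus: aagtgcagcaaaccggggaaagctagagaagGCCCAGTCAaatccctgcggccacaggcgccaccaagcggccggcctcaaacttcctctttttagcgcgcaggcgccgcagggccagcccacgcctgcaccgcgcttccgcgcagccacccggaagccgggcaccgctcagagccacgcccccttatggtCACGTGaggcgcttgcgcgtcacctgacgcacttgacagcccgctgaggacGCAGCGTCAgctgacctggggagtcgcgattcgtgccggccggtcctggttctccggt
MCOLN1, chr19:7522374-7522673, strand plus: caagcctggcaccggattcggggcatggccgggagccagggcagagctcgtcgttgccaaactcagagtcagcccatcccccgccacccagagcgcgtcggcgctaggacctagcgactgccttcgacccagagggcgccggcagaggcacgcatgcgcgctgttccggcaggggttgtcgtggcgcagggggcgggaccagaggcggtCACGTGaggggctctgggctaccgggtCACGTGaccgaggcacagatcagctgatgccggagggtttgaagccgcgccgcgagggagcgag
LAMP1, chr13:113296989-113297288, strand plus: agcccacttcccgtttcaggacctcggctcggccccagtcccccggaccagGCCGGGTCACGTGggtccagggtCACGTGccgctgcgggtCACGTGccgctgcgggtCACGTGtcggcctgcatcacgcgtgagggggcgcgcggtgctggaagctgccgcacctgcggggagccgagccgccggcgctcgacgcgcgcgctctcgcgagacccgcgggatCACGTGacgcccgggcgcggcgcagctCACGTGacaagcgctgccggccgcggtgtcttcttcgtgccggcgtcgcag
The SQSTM1 window is that of the most downstream of its 3 starts, and none of the 3 motifs matched in any of them. A match in such a window describes the letters only. Sequence outside the windows was not searched, so a lack of matches covers only these 300 bases per start.

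The first comparison, DHN against NC, addressed the response of these genes to 1,2-DHN in cells without added asparagine. SQSTM1, MAP1LC3B, GABARAPL1 and 6 of 8 proton pump members were called higher in DHN cells, though the call of ATP6V1A was lost in several alternatives. Of the 7 hydrolase members 2 were higher and 2 lower. Outside the list, 5 of 13 tested pump subunits were higher and 2 lower. Of 38 lysosomal enzymes outside the list, 25 were lower and 1 higher. Of the 43 tested members 21 were higher in DHN cells and 8 lower (edgeR quasi-likelihood test, adjusted p under 0.05 with Benjamini-Hochberg adjustment over all tested genes, as for every call below). Across all tested genes 38.7% were called, 19.7% higher and 19.0% lower, against 48.8% and 18.6% of the members. The median log2 change of the members was 0.12, with 0.0073 over all tested genes. The largest rises were those of the hydrolase gene GLA, the ATG8 gene GABARAPL1, the receptor gene SQSTM1 and MAP1LC3B, and the largest fall that of the conjugation gene ATG7.

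**Figure D1:**
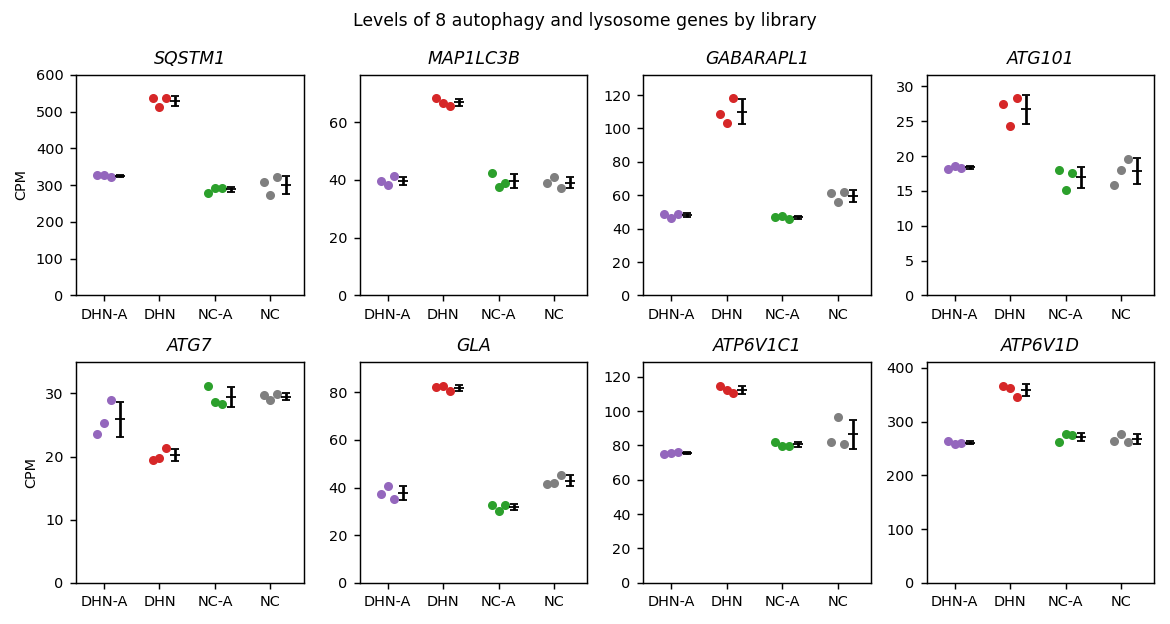
Levels of 8 members in CPM (y axis, from 0) in each library, with groups on the x axis. Points are libraries and the black marks give mean ± SD of 3 libraries. The DHN libraries of SQSTM1, MAP1LC3B, GABARAPL1, ATG101, GLA, ATP6V1C1 and ATP6V1D lie above all others, and those of ATG7 below all others.

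Among the cargo receptors SQSTM1 stood out. It encodes p62, which binds ubiquitinated proteins and the ATG8 proteins. SQSTM1 had 327, 326 and 323 CPM in DHN-A cells, 536, 514 and 536 CPM in DHN cells, 279, 293 and 292 CPM in NC-A cells and 307, 274 and 321 CPM in NC cells. The DHN libraries lay above all 9 others. The change in DHN against NC was 1.76-fold, or 0.81 ± 0.041 on the log2 scale (± SE, as for all log2 changes; adjusted p = 1.28e-20). OPTN encodes optineurin, a receptor for damaged mitochondria and bacteria. OPTN had 379, 374 and 364 CPM in DHN-A cells, 314, 309 and 304 CPM in DHN cells, 351, 388 and 404 CPM in NC-A cells and 379, 339 and 354 CPM in NC cells. It moved the other way, with DHN libraries below all others and a log2 change of -0.21 ± 0.043 (edgeR adjusted p = 9.03e-05). The remaining receptors had small changes. CALCOCO2, which encodes NDP52, a receptor for bacteria, was called higher (0.12 ± 0.037), a call lost without DHN 1 (adjusted p = 0.0827) and with no filter on low counts (0.0624). TAX1BP1, its relative, was called higher (0.15 ± 0.042), a call lost without NC 3 (adjusted p = 0.0586). NBR1, a receptor built like p62, was called lower (-0.10 ± 0.038), a call lost without any 1 of NC 1, DHN 1, DHN 2, DHN 3 and DHN-A 2 (adjusted p = 0.0519 to 0.158) and with no filter on low counts (0.0616).

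In the ATG8 family a member of each branch rose. MAP1LC3B encodes LC3B, the usual marker of autophagosomes. MAP1LC3B had 39.5, 38.2 and 41.2 CPM in DHN-A cells, 68.3, 66.6 and 65.7 CPM in DHN cells, 42.4, 37.6 and 39.1 CPM in NC-A cells and 38.9, 40.9 and 37.0 CPM in NC cells. Its DHN libraries did not overlap with any other group, at 1.72-fold the NC level (log2 change 0.78 ± 0.058, edgeR adjusted p = 1.87e-15). GABARAPL1 belongs to the GABARAP branch, which binds the ULK1 complex. GABARAPL1 had 48.9, 46.6 and 48.9 CPM in DHN-A cells, 109, 103 and 118 CPM in DHN cells, 46.9, 47.7 and 45.8 CPM in NC-A cells and 61.4, 55.7 and 62.2 CPM in NC cells. The DHN values were the highest and those of both asparagine groups lay below NC. The change in DHN against NC was 1.84-fold (log2 0.88 ± 0.053, edgeR adjusted p = 9.35e-19). GABARAPL2, of the same branch, had a log2 change of -0.018 ± 0.055 and was not called (edgeR adjusted p = 0.841). GABARAP had 1.69, 2.52 and 1.36 CPM in DHN-A cells, 1.21, 1.14 and 1.53 CPM in DHN cells, 0.148, 1.16 and 0.402 CPM in NC-A cells and 1.18, 0.917 and 0.845 CPM in NC cells. At these few counts its log2 change of 0.43 ± 0.37 in DHN against NC was not called (edgeR adjusted p = 0.395).

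In the core machinery 5 of 14 members were higher and 2 lower, 50% in all, beside 38.7% of all tested genes. The ULK1 complex phosphorylates the first factors of autophagy, and ATG101 and ATG13 are partners in it. ATG101 had 18.2, 18.6 and 18.4 CPM in DHN-A cells, 27.5, 24.3 and 28.3 CPM in DHN cells, 18.0, 15.2 and 17.6 CPM in NC-A cells and 15.9, 18.0 and 19.6 CPM in NC cells. The DHN libraries lay above every other library, 1.49-fold the NC level (log2 0.57 ± 0.085, edgeR adjusted p = 3.07e-07). ATG13 had 51.0, 57.0 and 55.0 CPM in DHN-A cells, 54.3, 51.3 and 52.7 CPM in DHN cells, 53.0, 52.7 and 56.3 CPM in NC-A cells and 62.1, 61.9 and 58.5 CPM in NC cells. ATG13 was lower in DHN than in NC (-0.21 ± 0.055, edgeR adjusted p = 0.00217), and the values of all treated groups lay below those of NC. The kinase gene ULK1 (0.071 ± 0.046), the scaffold gene RB1CC1 (0.10 ± 0.047) and ATG9A, which encodes the membrane protein of the seed vesicles (-0.10 ± 0.063), were not called.

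Of the genes that make and read the lipid PI3P, ATG14 and WIPI2 were called, both higher. ATG14 directs the lipid kinase complex to autophagy. ATG14 had 96.6, 95.3 and 97.4 CPM in DHN-A cells, 111, 106 and 105 CPM in DHN cells, 105, 99.3 and 107 CPM in NC-A cells and 99.4, 99.6 and 93.8 CPM in NC cells. The DHN libraries lay above those of DHN-A and NC and overlapped with NC-A. The change was 0.14 ± 0.045, a call lost without any 1 of NC 3 and DHN 1 (adjusted p = 0.0599 to 0.0854) and with no filter on low counts (0.0908). WIPI2 binds PI3P and recruits the conjugation machinery. WIPI2 had 108, 111 and 116 CPM in DHN-A cells, 127, 129 and 131 CPM in DHN cells, 105, 111 and 109 CPM in NC-A cells and 114, 113 and 118 CPM in NC cells. Its DHN values exceeded all others, with a log2 change of 0.16 ± 0.043 (edgeR adjusted p = 0.00164). BECN1, the scaffold of the kinase complex (-0.015 ± 0.048), and WIPI1 (-0.024 ± 0.065) were not called.

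The conjugation enzymes moved in both directions. ATG7 activates ATG8 proteins and ATG12 as the first enzyme of the cascade. ATG7 had 23.5, 25.3 and 28.9 CPM in DHN-A cells, 19.5, 19.8 and 21.3 CPM in DHN cells, 31.3, 28.6 and 28.4 CPM in NC-A cells and 29.7, 28.9 and 29.9 CPM in NC cells. The DHN libraries were the lowest, and the DHN-A libraries lay between DHN and NC, with DHN-A 3 close to the lowest NC library. ATG7 was at 0.687 times the NC level in DHN cells (log2 -0.54 ± 0.078, edgeR adjusted p = 1.35e-07). ATG3 takes the ATG8 protein over from ATG7 and passes it to lipid. ATG3 had 95.9, 97.3 and 88.6 CPM in DHN-A cells, 119, 121 and 108 CPM in DHN cells, 93.3, 94.3 and 99.2 CPM in NC-A cells and 93.3, 98.4 and 90.9 CPM in NC cells. Its DHN libraries were the highest (0.29 ± 0.049, edgeR adjusted p = 2.48e-06). ATG16L1, which places the lipid-attaching complex on the membrane, was higher too (0.33 ± 0.058, edgeR adjusted p = 5.52e-06). Its partners ATG5 (0.11 ± 0.056) and ATG12 (0.094 ± 0.049) were not called, but ATG5 was called without NC 2 (edgeR adjusted p = 0.0299) or without DHN 3 (edgeR adjusted p = 0.0413).

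Both transcription factor genes were higher in DHN cells. TFEB had 10.4, 13.2 and 10.3 CPM in DHN-A cells, 12.2, 13.9 and 13.0 CPM in DHN cells, 10.8, 10.9 and 9.19 CPM in NC-A cells and 10.5, 9.56 and 9.08 CPM in NC cells. TFEB had a low level, and its NC values lay below those of DHN (0.44 ± 0.11, edgeR adjusted p = 0.00142). TFE3 had 180.0, 179 and 168 CPM in DHN-A cells, 211, 198 and 204 CPM in DHN cells, 171, 172 and 163 CPM in NC-A cells and 182, 171 and 184 CPM in NC cells. The DHN libraries of TFE3 were the highest, with a log2 change of 0.19 ± 0.041 (edgeR adjusted p = 0.000186). Messenger RNA does not show the movement of these factors into the nucleus, by which they are mainly controlled.

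The lysosomal membrane genes split. MCOLN1 encodes the calcium channel TRPML1. MCOLN1 had 35.01, 36.9 and 31.6 CPM in DHN-A cells, 42.2, 40.2 and 43.5 CPM in DHN cells, 28.2, 32.2 and 30.6 CPM in NC-A cells and 33.9, 33.5 and 33.0 CPM in NC cells. Its DHN libraries lay above all others (0.33 ± 0.067, edgeR adjusted p = 7.06e-05). LAMP2 lines the lysosomal membrane and takes part in chaperone-mediated autophagy. LAMP2 had 173, 179 and 168 CPM in DHN-A cells, 161, 159.7 and 158 CPM in DHN cells, 183, 178 and 181 CPM in NC-A cells and 183, 189.7 and 186 CPM in NC cells. It was lower, and its DHN libraries lay below all others (-0.22 ± 0.039, edgeR adjusted p = 6.48e-06). LAMP1 had 560.4, 575 and 573 CPM in DHN-A cells, 582, 574 and 612 CPM in DHN cells, 551, 567 and 557 CPM in NC-A cells and 552, 559.6 and 575 CPM in NC cells. The DHN and NC libraries of LAMP1 overlapped, and its log2 change of 0.068 ± 0.035 was not called (edgeR adjusted p = 0.124).

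Of 7 hydrolases 2 were higher and 2 lower in DHN cells, or 28.6% each, with a median log2 change of -0.10. Of all tested genes 19.7% were higher and 19.0% lower. GLA encodes alpha-galactosidase A, which removes galactose from glycolipids and is the enzyme lacking in Fabry disease. GLA had 37.2, 40.8 and 35.1 CPM in DHN-A cells, 82.1, 82.8 and 80.4 CPM in DHN cells, 32.4, 30.2 and 32.7 CPM in NC-A cells and 41.4, 41.9 and 45.5 CPM in NC cells. The DHN libraries lay far above all others, the DHN-A libraries just below those of NC, and the NC-A libraries lowest. GLA was at 1.90 times the NC level in DHN cells, the largest change of any member (log2 0.93 ± 0.058, edgeR adjusted p = 3.71e-18). CTSZ, the gene of a carboxypeptidase, went down. CTSZ had 228, 243 and 219 CPM in DHN-A cells, 199.9, 185 and 208 CPM in DHN cells, 234, 236 and 228 CPM in NC-A cells and 231, 237 and 252 CPM in NC cells. Its DHN libraries lay below all others (-0.28 ± 0.044, edgeR adjusted p = 8.64e-07). CTSB had the same direction (-0.20 ± 0.033, edgeR adjusted p = 2.70e-06). CTSD encodes the main aspartic protease of lysosomes. CTSD had 58.6, 70.4 and 58.4 CPM in DHN-A cells, 51.6, 54.2 and 57.8 CPM in DHN cells, 60.5, 63.6 and 54.7 CPM in NC-A cells and 54.3, 58.8 and 62.2 CPM in NC cells. The DHN and NC libraries of CTSD overlapped (-0.10 ± 0.073, edgeR adjusted p = 0.325). CTSL (0.090 ± 0.039) and HEXA, a beta-hexosaminidase subunit gene (-0.10 ± 0.094), were not called, but CTSL was called without NC 3 (edgeR adjusted p = 0.0468). NEU1, the lysosomal sialidase gene, was called higher (0.15 ± 0.049), a call lost without DHN 3 (adjusted p = 0.104) and with no filter on low counts (0.0736).

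Of 8 proton pump members 6 were higher and 1 lower, with a median log2 change of 0.30. These are 75.0% and 12.5%, against 19.7% and 19.0% of all tested genes. The V1 part of the pump splits ATP on the cytosolic side, and the V0 part carries protons through the membrane. ATP6V1D is the central stalk of V1. ATP6V1D had 263, 258 and 259.7 CPM in DHN-A cells, 367, 362 and 346 CPM in DHN cells, 262, 277 and 275 CPM in NC-A cells and 263, 277 and 261 CPM in NC cells. All DHN libraries exceeded all others (0.42 ± 0.038, edgeR adjusted p = 5.66e-13). ATP6V1B2 is part of the ATP-splitting ring. ATP6V1B2 had 87.2, 83.6 and 87.8 CPM in DHN-A cells, 102, 105 and 108 CPM in DHN cells, 88.6, 88.1 and 89.1 CPM in NC-A cells and 81.9, 78.4 and 84.7 CPM in NC cells. Again the DHN libraries were the highest (0.36 ± 0.046, edgeR adjusted p = 5.32e-09). ATP6V1C1 joins V1 to V0. ATP6V1C1 had 75.0, 75.4 and 75.9 CPM in DHN-A cells, 115, 112 and 110.3 CPM in DHN cells, 82.1, 79.7 and 80.0 CPM in NC-A cells and 82.0, 96.4 and 81.1 CPM in NC cells. NC 2 lay above the other NC libraries and below all DHN libraries (0.38 ± 0.050, edgeR adjusted p = 2.35e-08). ATP6V0D1, the V0 subunit that meets the stalk (0.43 ± 0.075), and ATP6V1H, a regulatory subunit (0.24 ± 0.066), were also higher. ATP6V1A, the other ring subunit, was called higher (0.16 ± 0.064), a call lost without any 1 of NC 1, NC 3, NC-A 2, NC-A 3, DHN 2, DHN 3 and DHN-A 1 (adjusted p = 0.0552 to 0.198) and with DESeq2 (0.0798), with no filter on low counts (0.180), with a replicate block (0.0563) and with only the groups compared (0.0743). The small V0 subunit gene ATP6V0E1 was not called (0.092 ± 0.049), but was called without DHN 2 (edgeR adjusted p = 0.0490). ATP6AP1, an assembly factor, was called lower (-0.13 ± 0.048), a call lost without any 1 of NC 3 and DHN 1 (adjusted p = 0.245 to 0.327) and with limma-voom (0.0590).

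**Figure D2:**
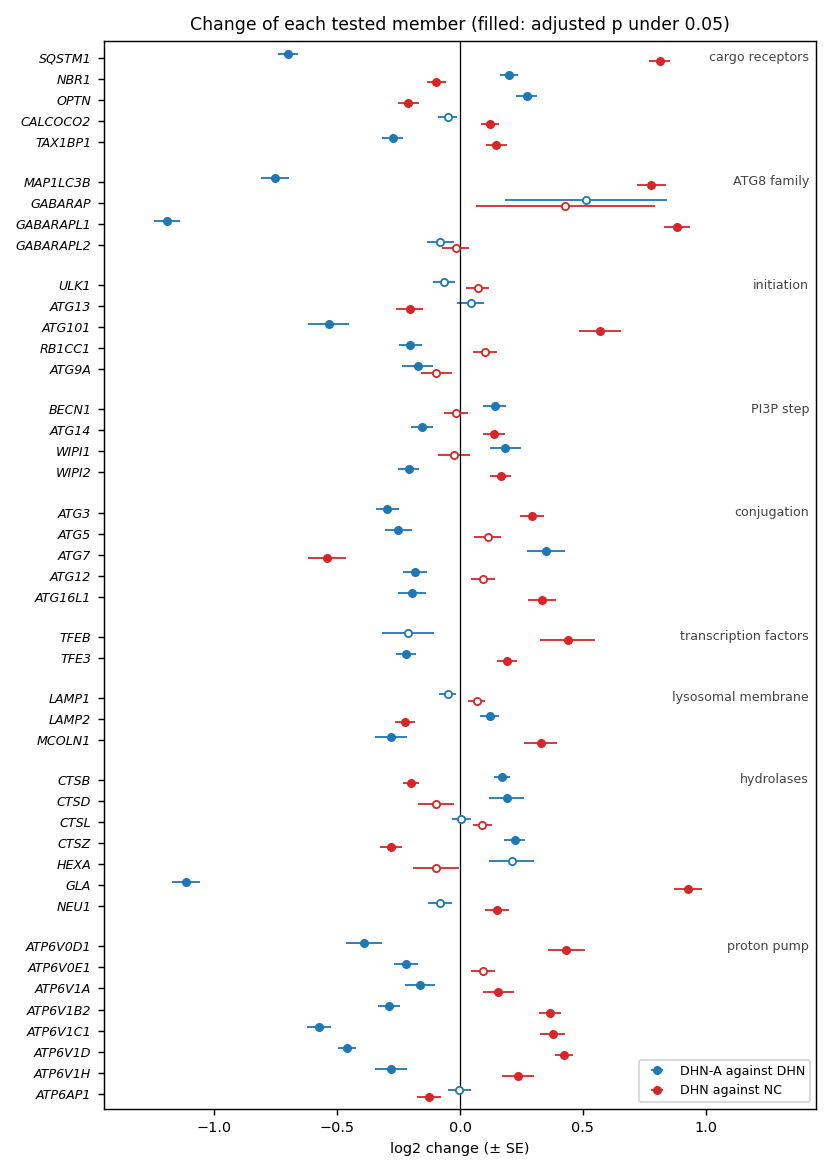
Log2 change (x axis, ± SE) of the 43 tested members, grouped by role from top to bottom, in DHN-A against DHN (blue) and DHN against NC (red). Filled points passed an adjusted p of 0.05. SQSTM1, MAP1LC3B, GABARAPL1 and GLA lie farthest right in DHN against NC and farthest left in DHN-A against DHN; both comparisons use the DHN libraries.

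Set side by side, receptors and ATG8 genes had a median log2 change of 0.15 (5 of 9 tested higher, 2 lower), and the core machinery 0.10. The proton pump had 0.30 and the hydrolases -0.10. The lysosomal members thus did not move in 1 direction. Lists of other genes of the same systems were examined next. Like the members, they were chosen with earlier results of these data known, so they are not independent support. Of 38 other lysosomal enzymes and their activators, 1 was higher in DHN cells and 25 were lower, with a median of -0.26, against 19.7% and 19.0% of all tested genes. Among the genes with the smallest p were CTSS, the protease cathepsin S (-1.23 ± 0.10), MAN2B1, a mannosidase (-0.51 ± 0.054), and GM2A, the activator of ganglioside breakdown (-0.44 ± 0.067). CTSS had 9.67, 9.87 and 9.15 CPM in DHN cells, against 21.4, 23.5 and 22.2 CPM in NC cells, without overlap. The single higher gene, CTSV, a cathepsin, was chosen for mention after its value was seen (0.33 ± 0.12).

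The other pump subunits, 13 of 16 tested, included 5 higher and 2 lower, with a median of 0.15. These are 38.5% and 15.4%, against 19.7% and 19.0% of all tested genes. The V1 stator subunit gene ATP6V1G1 had 93.8, 97.7 and 96.9 CPM in DHN cells, against 53.7, 57.4 and 53.9 CPM in NC cells (0.81 ± 0.050). ATP6V0B, of the proton-carrying ring (0.50 ± 0.059), and ATP6V1E1, of the stator (0.27 ± 0.046), were higher as well, while ATP6V0E2 was lower (-0.57 ± 0.071). ATP6V0E2 is the paralog of the uncalled member ATP6V0E1. Of 33 other autophagy genes tested 11 were higher and 5 lower, or 33.3% and 15.2% (median 0.075). BNIP3 (-1.28 ± 0.040) and BNIP3L (-0.68 ± 0.041), receptors for mitochondria, were lower, as was TECPR1, a tether of autophagosomes and lysosomes (-0.43 ± 0.060). PLEKHM1, an adaptor for that fusion, was higher (0.44 ± 0.041). Of 26 other lysosomal membrane and nutrient-sensing genes tested 6 were higher and 8 lower, or 23.1% and 30.8% (median -0.11). FLCN (0.60 ± 0.065) and its partner FNIP1 (0.39 ± 0.046), which act on the GTPases that keep TFEB and TFE3 in the cytosol, were higher. The cholesterol exporter NPC1 (-0.44 ± 0.039) and SCARB2, the carrier of an enzyme to lysosomes (-0.30 ± 0.039), were lower.

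**Figure D3:**
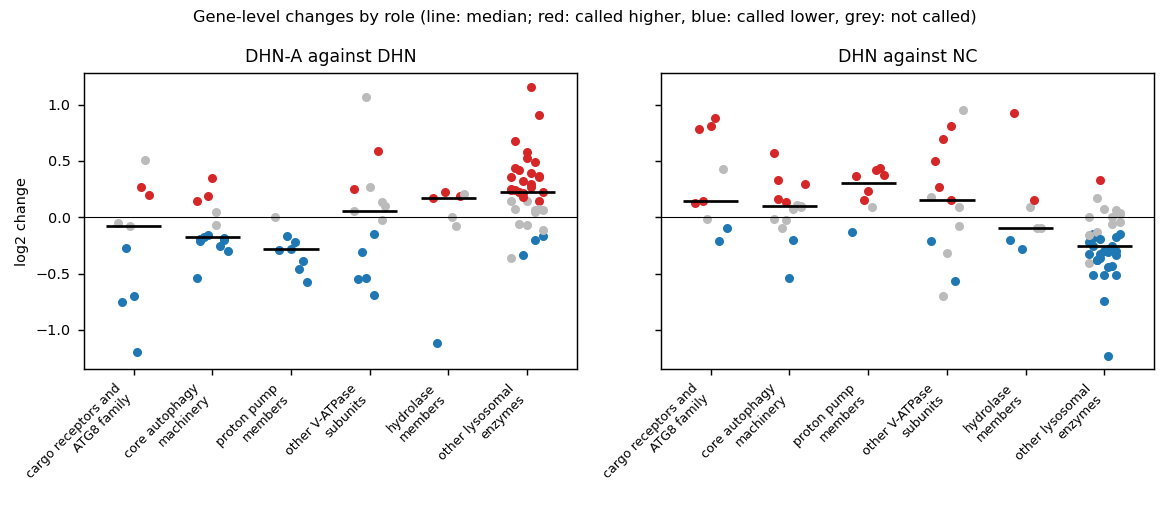
Log2 change of each tested gene (y axis) by role group (x axis) in DHN-A against DHN (left) and DHN against NC (right), with the median as a line and colours for genes called higher (red), called lower (blue) or not called (grey). In DHN against NC the proton pump members have a median of 0.30 and the other lysosomal enzymes one of -0.26; in DHN-A against DHN the medians are -0.28 and 0.23.

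The effect of added asparagine in cells given 1,2-DHN was addressed by DHN-A against DHN. It shares the DHN libraries with the comparison above, so opposite signs in both are not independent. Of the 43 tested members 9 were higher in DHN-A cells and 23 lower, or 20.9% and 53.5%, against 20.9% and 20.8% of all tested genes (41.7% in either direction). The median of the members was -0.17, with 0.0091 over all tested genes. The largest falls were those of GABARAPL1, GLA, MAP1LC3B and SQSTM1.

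Among receptors and ATG8 genes GABARAPL1 was at -1.19 ± 0.053 on the log2 scale (edgeR adjusted p = 1.75e-23), MAP1LC3B was at -0.75 ± 0.057 (3.18e-15) and SQSTM1 at -0.70 ± 0.041 (1.75e-18). SQSTM1 averaged 325 ± 1.99 CPM in DHN-A cells and 529 ± 13.1 CPM in DHN cells (mean ± SD, n = 3 each). TAX1BP1 was lower (-0.27 ± 0.042), OPTN (0.27 ± 0.042) and NBR1 (0.20 ± 0.037) were higher, and CALCOCO2 (-0.051 ± 0.037), GABARAPL2 (-0.081 ± 0.055) and GABARAP (0.51 ± 0.33) were not called. The core machinery had 3 of 14 members higher and 9 lower, or 21.4% and 64.3%, against 20.9% and 20.8% of all tested genes. ATG101 was at -0.54 ± 0.083 and ATG3 at -0.30 ± 0.048, both lower, with ATG5 (-0.25 ± 0.055), ATG16L1 (-0.20 ± 0.056), ATG12 (-0.18 ± 0.049), WIPI2 (-0.21 ± 0.042), RB1CC1 (-0.20 ± 0.047) and ATG14 (-0.16 ± 0.044) lower too. ATG9A was called lower (-0.17 ± 0.062), a call lost without any 1 of DHN 2, DHN 3, DHN-A 1 and DHN-A 2 (adjusted p = 0.0536 to 0.0963) and with no filter on low counts (0.118). ATG7 was higher (0.35 ± 0.077, edgeR adjusted p = 0.000202). BECN1 (0.14 ± 0.047) was called higher, a call lost without any 1 of DHN 3 and DHN-A 2 (adjusted p = 0.0705 to 0.192), and so was WIPI1 (0.18 ± 0.063), a call lost without any 1 of DHN 3 and DHN-A 3 (adjusted p = 0.0531 to 0.0893). ULK1 (-0.067 ± 0.045) and ATG13 (0.044 ± 0.055) were not called.

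On the lysosomal side 7 of 8 pump members (87.5%) were lower and 0 higher, with a median of -0.28. Of all tested genes 20.8% were lower and 20.9% higher. ATP6V1C1 was at -0.57 ± 0.050, ATP6V1D at -0.46 ± 0.038, ATP6V0D1 at -0.39 ± 0.073, ATP6V1B2 at -0.29 ± 0.045, ATP6V1H at -0.28 ± 0.065 and ATP6V0E1 at -0.22 ± 0.049. ATP6V1A (-0.16 ± 0.062) lost its call without any 1 of DHN 3, DHN-A 1 and DHN-A 2 (adjusted p = 0.0851 to 0.115) and with no filter on low counts (0.130), and ATP6AP1 (-0.0027 ± 0.048) was not called. GLA averaged 37.7 ± 2.91 CPM in DHN-A cells and 81.8 ± 1.26 CPM in DHN cells (mean ± SD, n = 3 each), a log2 change of -1.12 ± 0.057 (edgeR adjusted p = 4.53e-21). Of the protease genes, CTSZ (0.22 ± 0.043) and CTSB (0.17 ± 0.033) were higher, and CTSD (0.19 ± 0.071) was called higher, a call lost without any 1 of NC 2, DHN 1, DHN 2 and DHN-A 2 (adjusted p = 0.0776 to 0.284). CTSL (0.0049 ± 0.039), HEXA (0.21 ± 0.092) and NEU1 (-0.082 ± 0.048) were not called, but HEXA was called without DHN 3 (edgeR adjusted p = 0.0307) and NEU1 was called without DHN 2 (edgeR adjusted p = 0.0263). MCOLN1 was lower (-0.28 ± 0.065), LAMP1 was not called (-0.050 ± 0.035), and LAMP2 was called higher (0.12 ± 0.039), a call lost without DHN-A 2 (adjusted p = 0.0897). TFE3 was lower (-0.22 ± 0.041). TFEB was not called (-0.21 ± 0.11), but without DHN-A 2, its highest DHN-A library, it was (adjusted p = 0.0185).

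Of the other lysosomal enzymes 23 of 38 were higher in DHN-A cells and 3 lower (median 0.23). These are 60.5% and 7.89%, against 20.9% and 20.8% of all tested genes. CTSS was at 1.16 ± 0.10, GM2A at 0.39 ± 0.066 and MAN2B1 at 0.35 ± 0.054. The other pump subunits had 2 of 13 higher and 5 lower (15.4% and 38.5%). ATP6V1G1 was at -0.69 ± 0.049, ATP6V0B at -0.55 ± 0.058, ATP6V1E1 at -0.31 ± 0.045 and ATP6V0E2 at 0.59 ± 0.070. The other autophagy genes had 6 of 33 higher and 13 lower (18.2% and 39.4%). Among these PLEKHM1 was lower (-0.23 ± 0.040) and TECPR1 higher (0.49 ± 0.058). BNIP3 was lower again (-0.26 ± 0.040) and BNIP3L was not called (0.012 ± 0.041). The other membrane and nutrient-sensing genes had 9 of 26 higher and 4 lower (34.6% and 15.4%). NPC1 was at 0.44 ± 0.039, SCARB2 at 0.20 ± 0.039, FLCN at -0.41 ± 0.063 and FNIP1 at -0.36 ± 0.045.

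Asparagine without 1,2-DHN was examined in NC-A against NC, where 2 of 43 members were higher and 6 lower (edgeR). The 18.6% of members called lay near the 20.2% of all tested genes (9.32% higher and 10.9% lower). Without NC-A 1 the counts were 3 and 4 members. OPTN was not called with all libraries (0.094 ± 0.043, edgeR adjusted p = 0.118). Without NC-A 1 it was called higher (0.15, edgeR adjusted p = 0.0082). The largest called falls were those of GLA (-0.43 ± 0.065, edgeR adjusted p = 1.53e-06) and GABARAPL1 (-0.35 ± 0.058, 9.21e-06), genes that were higher in DHN than in NC. GLA averaged 31.8 ± 1.37 CPM in NC-A cells and 42.9 ± 2.23 CPM in NC cells (mean ± SD, n = 3 each), and without NC-A 1 the log2 changes were -0.45 for GLA and -0.35 for GABARAPL1, both called. In the initiation group ATG9A was lower (-0.30 ± 0.065), also without NC-A 1 (-0.29, edgeR adjusted p = 0.00355). ATG13 (-0.17 ± 0.056) was called lower, a call lost without any 1 of NC 1, NC 2, NC-A 1 and NC-A 2 (adjusted p = 0.0768 to 0.103), and ULK1 (-0.15 ± 0.047) was called lower, a call lost without any 1 of NC 3, NC-A 1 and NC-A 3 (adjusted p = 0.0639 to 0.114). ATP6V0E1 was called lower (-0.14 ± 0.050), a call lost without any 1 of NC 2, NC 3, NC-A 2, NC-A 3, DHN 1, DHN 2, DHN-A 1, DHN-A 2 and DHN-A 3 (adjusted p = 0.0505 to 0.261) and with limma-voom (0.0834), with a replicate block (0.0667) and with only the groups compared (0.0578). BECN1 was higher (0.21 ± 0.048), also without NC-A 1 (0.21, edgeR adjusted p = 0.00318). CALCOCO2 was called higher (0.14 ± 0.037), a call lost without NC-A 3 (adjusted p = 0.0636) and with no filter on low counts (0.0852). Without NC-A 1 CALCOCO2 was at 0.16 and ATP6V0E1 at -0.16, both called. Of the other lysosomal enzymes 1 was higher and 3 were lower, or 10.5% called against 20.2% of all tested genes. Without NC-A 1 or without NC-A 2 it was 2 in all.

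The response to 1,2-DHN with asparagine present was measured by DHN-A against NC-A, in libraries that DHN against NC does not use. Of the 43 members 3 were called higher and 0 lower, or 6.98% and 0%, against 0.805% and 1.29% of all tested genes (2.10% in either direction, edgeR). These were SQSTM1 (0.17 ± 0.042, edgeR adjusted p = 0.0129), GLA (0.24 ± 0.064, 0.0278) and the thinly counted GABARAP (1.72 ± 0.39, 0.00859), which had 47, 66 and 33 counts in DHN-A and 2, 16 and 7 in NC-A. Without NC-A 1 none of them was called, with adjusted p of 0.0679 for SQSTM1, 0.0524 for GLA and 0.0773 for GABARAP. SQSTM1 also lost its call without DHN-A 1 (0.0616) or DHN-A 2 (0.0725), and GABARAP without NC-A 3 (0.101) or DHN-A 2 (0.112). GLA lost it without NC-A 2 (0.174), NC-A 3 (0.0635), DHN-A 1 (0.0663) or DHN-A 2 (0.296). MAP1LC3B (-0.00042 ± 0.061) and GABARAPL1 (0.040 ± 0.058) were not called, at 0.048 and 0.042 without NC-A 1. With limma-voom GLA was not called either (0.0872), and with only the groups compared GABARAP was not (0.0682).

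The interaction tested whether the change with 1,2-DHN differed in the presence of asparagine (the change in DHN-A against NC-A minus that in DHN against NC). It was called negative for 16 of 43 members and called positive for 7, or 37.2% and 16.3%. Of all tested genes 12.5% were called negative and 13.2% positive (25.7% in either direction, edgeR). Without NC-A 1 the member counts were 15 and 5. The most negative were GABARAPL1 (-0.84 ± 0.078, edgeR adjusted p = 6.33e-12), MAP1LC3B (-0.78 ± 0.084, 4.57e-10), GLA (-0.68 ± 0.087, 2.22e-08) and SQSTM1 (-0.64 ± 0.058, 7.69e-12). Without NC-A 1 these were -0.84 for GABARAPL1, -0.73 for MAP1LC3B, -0.67 for GLA and -0.66 for SQSTM1. In the proton pump 5 of 8 members were called negative. ATP6V1D (-0.48 ± 0.054) and ATP6V1C1 (-0.47 ± 0.072) had the most negative values (-0.50 and -0.46 without NC-A 1). ATG7 was the most positive called member (0.36 ± 0.11, edgeR adjusted p = 0.0105), a call lost without DHN-A 3 (adjusted p = 0.0700). It was called without NC-A 1 (0.40). The number of members called positive was 3 without DHN 2 or without DHN-A 2. Of the other lysosomal enzymes 16 of 38 were called positive and 0 called negative, and without NC-A 1 15 were called.

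DHN-A against NC set cells given both compounds beside untreated ones. There 3 members were called higher and 8 lower, or 6.98% and 18.6%, against 9.83% and 11.2% of all tested genes (21.1% in either direction, edgeR). GABARAPL1 was below its untreated level (-0.31 ± 0.054, edgeR adjusted p = 2.32e-05), as was ATG9A (-0.27 ± 0.061). MAP1LC3B (0.027 ± 0.059) and ATG101 (0.035 ± 0.085) were not called. The 3 higher calls, of SQSTM1 (0.11 ± 0.041), NBR1 (0.10 ± 0.037) and GABARAP (0.94 ± 0.34), each failed in several alternatives. SQSTM1 lost its call without any 1 of NC 1, NC 2, NC-A 2, NC-A 3, DHN 1, DHN 2, DHN 3, DHN-A 1, DHN-A 2 and DHN-A 3 (adjusted p = 0.0530 to 0.447) and with relative log expression scaling (0.0671), with DESeq2 (0.0715), with limma-voom (0.0585), with no filter on low counts (0.0705) and with only the groups compared (0.0664). NBR1 lost it without any 1 of NC 1, NC 2, NC 3, DHN 1, DHN 2, DHN-A 1 and DHN-A 2 (adjusted p = 0.0520 to 0.150) and with relative log expression scaling (0.0582), with no filter on low counts (0.139), with a replicate block (0.0526) and with only the groups compared (0.0526). GABARAP lost it without any 1 of NC 1, NC 2, NC 3, DHN 1, DHN-A 1 and DHN-A 2 (adjusted p = 0.0504 to 0.264) and with DESeq2 (0.0776), with limma-voom (0.0611) and with a replicate block (0.0547). With 1 library left out 0 to 4 members were called higher: 0 without NC 2, DHN 1, DHN-A 1 or DHN-A 2, and 1 without NC 1, NC 3 or DHN 2. The number called lower was 4 without NC 2 or without DHN-A 1. GLA was lower (-0.19 ± 0.060), a call lost without any 1 of NC 3, DHN-A 1 and DHN-A 3 (adjusted p = 0.0725 to 0.146). The pump gene ATP6V1C1 was lower (-0.20 ± 0.050), a call lost without NC 2 (adjusted p = 0.109). ATG13 (-0.16 ± 0.053) lost its call without any 1 of NC 1, NC 2 and DHN-A 1 (adjusted p = 0.0802 to 0.196) and with no filter on low counts (0.0591). TAX1BP1 (-0.13 ± 0.042) lost it without any 1 of NC 1, NC 2, DHN-A 1 and DHN-A 2 (adjusted p = 0.0577 to 0.173) and with no filter on low counts (0.0749). LAMP2 (-0.10 ± 0.038) lost it without any 1 of NC 1, NC 2, NC 3, NC-A 2, NC-A 3, DHN 1, DHN 2, DHN-A 1 and DHN-A 3 (adjusted p = 0.0531 to 0.168) and with no filter on low counts (0.206), with a replicate block (0.0591) and with only the groups compared (0.0642), and ATP6AP1 (-0.13 ± 0.047) without any 1 of NC 3, NC-A 2, DHN-A 1, DHN-A 2 and DHN-A 3 (adjusted p = 0.0564 to 0.295) and with limma-voom (0.0594), with no filter on low counts (0.0863) and with a replicate block (0.0536).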

How the data were processed

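Total RNA of SRA01/04 cells went into libraries made with a stranded kit, per the labels' protocols. The deposited table gives the authors' read counts per gene symbol and a gene length for 12 libraries; the values are whole and their totals differ. Per the submitters' processing notes, Bowtie and hg38 were used. Of the aligner's version and settings, the counting tool, its strand setting and the annotation, nothing is given in the sources used here. Members and lists were chosen with earlier results of these data known.

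Genes passing edgeR's filterByExpr over the 4 groups were tested (17889). Group means were fitted by edgeR's quasi-likelihood method with trimmed mean of M values scaling over all 12 libraries (edgeR 4.0.16, R 4.3.3, robust), and p-values were adjusted over all tested genes with a threshold of 0.05. Standard errors are the log2 change divided by the square root of the test's F and are approximate. CPM use the scaled library sizes. Replicates varied by 4.6% beyond counting noise, and no pair of a group looked like a repeat deposit (mean chi-square per gene 1.74 to 3.94). Values in every library are given for the 2 members of each of 9 role groups with the smallest p in DHN against NC, members called with a log2 change of at least 0.5 in any comparison, and SQSTM1, MAP1LC3B, TFEB, CTSD and LAMP1; of the 4 further lists (116 genes, 110 tested) the 4 genes with the smallest p are named, except 1 that is not reported here. On data simulated for DHN against NC (17044 genes tested) 58.2% of 1.2-fold, 80.6% of 1.5-fold and 95.5% of 2-fold changes were called. Only 67, 67 and 66 genes were changed there, all picked from genes with more counts. The real comparison called 38.7% of genes, which alters the adjusted threshold, so these rates do not carry over to it. Alternatives were relative log expression scaling, DESeq2 1.42.0, limma-voom (limma 3.58.1), no filter on low counts, a replicate block, a fit of only the compared groups, and leaving out each library in turn. Gene overlaps come from GENCODE release 29 by symbol. Of the members' promoter windows 37 of 43 end in bases found in the opening stretch of a transcript of that gene there. This checks strand and rough place, not the exact start.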

Additional observations from a re-analysis of the deposited data

Results flagged for a closer look

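The effect of 1,2-DHN differed with and without asparagine, by the interaction test over all genes, for 23 members. These are 53.5% of the tested members, against 25.7% of all tested genes. On the log2 scale the difference was -0.64 for SQSTM1, -0.78 for MAP1LC3B, -0.84 for GABARAPL1 and -0.68 for GLA. In the other receptors it was -0.27 for TAX1BP1, -0.19 for CALCOCO2, 0.18 for OPTN and 0.16 for NBR1. In the core machinery it was -0.46 for ATG101, -0.32 for ATG3, -0.24 for ATG14, -0.24 for RB1CC1, -0.23 for ATG16L1, 0.21 for ATG13 and 0.36 for ATG7. In the proton pump it was -0.48 for ATP6V1D, -0.47 for ATP6V1C1, -0.41 for ATP6V1B2, -0.38 for ATP6V0D1 and -0.37 for ATP6V1H. For LAMP2 it was 0.17, for CTSB 0.17 and for CTSZ 0.27. Without NC-A 1 the difference was -0.28 for TAX1BP1, -0.21 for CALCOCO2, 0.12 for OPTN and 0.16 for NBR1. In the core machinery it was then -0.41 for ATG101, -0.335 for ATG3, -0.23 for each of ATG14, RB1CC1 and ATG16L1, and 0.20 for ATG13. In the pump it was -0.40 for ATP6V1B2, -0.37 for ATP6V0D1 and -0.34 for ATP6V1H. LAMP2 was then at 0.18, CTSB at 0.18 and CTSZ at 0.27. The call of OPTN was lost without any 1 of NC 1, NC-A 1, DHN 2, DHN 3, DHN-A 1 and DHN-A 2 (adjusted p = 0.0580 to 0.110). ATG16L1 lost it without any 1 of NC 2, NC 3, NC-A 1, NC-A 2, DHN 3 and DHN-A 1 (adjusted p = 0.0539 to 0.112) and with no filter on low counts (0.257). ATG13 lost it without any 1 of NC 1, NC 2, NC-A 1, NC-A 2, DHN 2, DHN 3, DHN-A 2 and DHN-A 3 (adjusted p = 0.0664 to 0.139) and with limma-voom (0.0529). LAMP2 lost it without any 1 of NC-A 2, DHN 2 and DHN-A 2 (adjusted p = 0.0504 to 0.0904), NBR1 without any 1 of DHN 2 and DHN-A 2 (adjusted p = 0.0662 to 0.0729), and ATG7 without DHN-A 3 (adjusted p = 0.0700). With no filter on low counts RB1CC1 (0.0750), ATG14 (0.0604) and CALCOCO2 (0.125) were not called.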

How the results depend on the processing

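Of 2910 comparisons of a gene's result with an alternative, 2706 kept direction and call, 179 lost the call, 7 gained it and 18 changed sign. None of the 18 concerned a called change. In DHN against NC the counts stayed within 1.5 times those reported under every alternative run (19 to 22 members higher and 6 to 8 lower with 1 library left out), as in DHN-A against DHN (6 to 9 and 21 to 23).

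With 1 library left out, NC-A against NC called 1 to 3 members higher, 4 to 7 other autophagy genes, 2 to 4 other lysosomal enzymes, 1 to 2 other pump subunits and 2 to 4 other membrane genes. DHN-A against NC-A called 0 to 4 members higher and 143 to 426 of all genes. DHN-A against NC called 0 to 4 members higher and 4 to 10 lower, and the interaction was called positive for 3 to 7 members. With no filter on low counts, NC-A against NC called 1 member higher, 1 other pump subunit and 2 other membrane genes, and DHN-A against NC 1 member higher and 4 lower. With limma-voom 2 other lysosomal enzymes were called in NC-A against NC. In DHN-A against NC 1 member was called higher with relative log expression scaling, with DESeq2 and with only the compared groups fitted. The cause of these moves was not tested, except that leaving out a library leaves fewer samples.

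Same-numbered libraries of different groups did not deviate together (correlations of -0.176 to 0.229 over 18 pairs, 1 of them above 0.1, and 3 of 12 libraries closest to their own number), so the numbers were not taken as pairing. With the replicate block 1 member was called higher in DHN-A against NC, and ATP6AP1 in DHN-A against DHN was at 0.000335, uncalled. The remaining sign changes were all near 0 and uncalled. With 1 library left out the log2 change in DHN against NC ran over -0.0381 to 0.0158 for GABARAPL2, -0.0505 to 0.0365 for BECN1 and -0.0435 to 0.00591 for WIPI1. In DHN-A against DHN it ran over -0.0626 to 0.0262 for ATP6AP1, -0.0136 to 0.0113 for CTSL and -0.0127 to 0.0329 for BNIP3L. ATP6AP1 was at 0.0184 with no filter, and CTSL at -0.000819 with relative log expression scaling and -0.000448 with DESeq2. GABARAP and MAP1LC3A had the fewest counts of the members, 2 to 66 and 0 to 5 per library, which limits the precision of their values; the source of these low counts was not tested.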

Other observations

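BNIP3 and BNIP3L, receptors for mitochondria that low oxygen is known to induce, were lower than in untreated cells in all 3 treated groups. BNIP3 had 113, 114 and 112 CPM in DHN-A cells, 129, 139.8 and 136 CPM in DHN cells, 215, 206 and 203 CPM in NC-A cells and 327, 332 and 329.7 CPM in NC cells. The NC libraries were the highest. The log2 change was -1.54 ± 0.039 in DHN-A, -1.28 ± 0.040 in DHN and -0.66 ± 0.039 in NC-A cells, each against NC, so the 3 values share the NC libraries. BNIP3 was also lower in DHN-A than in NC-A (-0.88 ± 0.040, edgeR adjusted p = 2.41e-21). BNIP3L was at -0.66 ± 0.040 in DHN-A, -0.68 ± 0.041 in DHN and -0.35 ± 0.040 in NC-A cells against NC, and at -0.31 ± 0.041 in DHN-A against NC-A. Without NC-A 1, the change of BNIP3 was -0.69 for NC-A against NC and -0.85 for DHN-A against NC-A, and that of BNIP3L was -0.34 and -0.32. These genes were singled out after their values were seen.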
